A study of Mus musculus with 9 samples.

Results

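Smooth muscle contractile genes are described here in mouse epidermis after tamoxifen-induced inactivation of Alox12b. The 10 genes are Acta2, Actg2, Tagln, Myh11, Mylk, Cnn1, Synpo2, Des, Lmod1 and Smtn. Their members on the array are 19 of 45037 probe sets, every probe set that the platform annotation gives to exactly 1 gene and that gene is one of the 10. Each gene had at least 1 such probe set. Where a gene had several, the brightest by its mean over the 9 arrays stands for it, which leaves 10 of 18193 genes.

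Total RNA of epidermal sheets was hybridised to Affymetrix mouse arrays, 1 array per mouse, and the array values are on a log2 scale. The labels name 5 mice Alox12b fl/fl Cre (genotype p/p +/cre), called inactivated here, which carried floxed Alox12b and a tamoxifen-dependent Cre-ERT2 recombinase under the keratin 14 promoter. They name 4 littermates Alox12b fl/fl (genotype p/p +/+), called control, with floxed Alox12b and no Cre. Both groups were on the hairless SKH1 background (5 backcross generations), were 8 weeks old, received 3 intraperitoneal injections of 1 mg tamoxifen in sunflower seed oil, and were sampled 6 days later. Active Cre and loss of Alox12b therefore went together in every inactivated mouse, and their effects cannot be told apart. The epidermis was scratched off frozen skin, so cells from below it could be carried along. The number of arrays limits the precision.

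Alox12b itself, read by 1 probe set, averaged 9.89 ± 0.29 in the inactivated group (SD, n = 5) and 9.28 ± 0.10 in controls (SD, n = 4), higher by 0.61 ± 0.14 in the inactivated group (limma adjusted p = 0.00694). Where that probe set lies relative to the floxed part is not given in the sources used here, so it checks nothing about the deletion, and the groups rest on the labels. All 10 genes listed for keratinocytes lay above the median level of all probe sets, 4.40, and their mean level was 11.83 to 11.95 on inactivated arrays and 11.97 to 12.04 on control arrays. Inactivated replicate 5 stood apart from its group on the first principal component of all probe sets, with a score of 25.3 against 44.9 to 55.8 for the other inactivated arrays and -63.0 to -48.6 for controls.

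Smooth muscle cells shorten when calcium-bound calmodulin activates myosin light chain kinase (Mylk), which phosphorylates the light chain of smooth muscle myosin (heavy chain Myh11) and lets it pull on filaments of the smooth muscle actins Acta2 and Actg2. Calponin (Cnn1), transgelin (Tagln) and smoothelin (Smtn) bind these filaments, leiomodin (Lmod1) nucleates them, and synaptopodin 2 (Synpo2) and the intermediate filament protein desmin (Des) anchor them. In skin such cells form the arrector pili muscles and the walls of dermal vessels, and the dermal sheath of hair follicles also contracts. Acta2 is also made by pericytes and myofibroblasts, and Des by skeletal muscle.

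Many promoters of these genes are bound by serum response factor at a motif called the CArG box, and myocardin is its partner there. RefSeq promoter windows (assembly GRCm38.p6, 250 bases before to 50 after a start site) were at hand for 7 of the 10 genes. None was at hand for Actg2, Tagln and Myh11, so nothing is said about their promoters. The exact CArG box, searched on both strands, occurred in 0 of these 7 windows and in 1.63% of all 32851 windows. Among the gene lists described below, it was in 7 of 36 windows of smooth muscle partners and 4 of 20 of cytoskeletal counterparts. It was also in 2 of 18 windows of skeletal muscle markers, 1 of 12 of serum response factor regulators and none of the other lists. A CArG box with 1 base of its A/T centre replaced by C or G, searched after the exact box had given no match, occurred in the Acta2 window alone of the 7. It occurred there at 2 places, 84 and 34 bases before the start site of that window. That start site lies inside the Acta2 gene coordinates given below, not at their end. The start sites of the Mylk, Cnn1 and Synpo2 windows also lie inside their gene coordinates, that of Mylk far inside. At least 1 such match was in 8.5% of all windows, and 2 or more in 0.679%. The motif TATAAA (both strands) was in 1 of the 7 windows, that of Synpo2, and in 13.6% of all windows. Absence from a window says only that the letters are not there. Windows are printed for Acta2, which held the matches, Synpo2, which had the lowest adjusted p of these genes in the comparison, and Lmod1, which did not pass it, with the CArG-like matches in capitals.
Acta2, chr19:34255324-34255623, minus strand: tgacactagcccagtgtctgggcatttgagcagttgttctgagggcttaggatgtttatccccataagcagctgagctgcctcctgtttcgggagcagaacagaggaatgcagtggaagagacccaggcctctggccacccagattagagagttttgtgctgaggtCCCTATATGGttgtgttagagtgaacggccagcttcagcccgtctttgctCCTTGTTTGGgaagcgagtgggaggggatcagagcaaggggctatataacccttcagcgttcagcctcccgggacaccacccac
Synpo2, chr3:123236100-123236399, minus strand: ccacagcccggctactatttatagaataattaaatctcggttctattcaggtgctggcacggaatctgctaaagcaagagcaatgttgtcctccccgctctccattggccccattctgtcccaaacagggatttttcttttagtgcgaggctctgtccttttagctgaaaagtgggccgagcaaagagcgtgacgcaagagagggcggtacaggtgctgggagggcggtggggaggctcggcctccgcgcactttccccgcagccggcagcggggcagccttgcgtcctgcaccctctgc
Lmod1, chr1:135324563-135324862, plus strand: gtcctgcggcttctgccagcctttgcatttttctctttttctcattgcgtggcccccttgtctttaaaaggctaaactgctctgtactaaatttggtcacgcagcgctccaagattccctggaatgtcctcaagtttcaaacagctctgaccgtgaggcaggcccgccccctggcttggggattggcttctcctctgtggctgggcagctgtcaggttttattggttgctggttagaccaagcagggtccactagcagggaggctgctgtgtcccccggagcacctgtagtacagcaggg

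In the inactivated group, 9 of the 10 genes fell and none rose, by 0.33 to 0.92 on the log2 scale, which left 52.8% to 79.5% of the control level. For each of these 9 genes, every inactivated array lay below every control array. Lmod1 did not pass. At an unadjusted p of 0.05 the counts were again 9 lower and 0 higher. Only Lmod1 could have been added there, because every gene that passes after adjustment also passes before it. No share of all genes is given for the unadjusted threshold. No gene fell by 2-fold or more, beside 3.34% of all genes. Across all genes 18.9% passed as lower and 15.5% as higher at the adjusted threshold, and 17.6% were lower without overlap of the groups. The median difference of the 10 genes was -0.68, against 0.03 over all genes. Calls are at an adjusted p of 0.05 (limma, Benjamini-Hochberg over all 45037 probe sets), and differences are inactivated minus control ± SE. In bulk RNA, fewer smooth muscle cells and less of these transcripts per cell cannot be told apart.

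**Figure D1:**
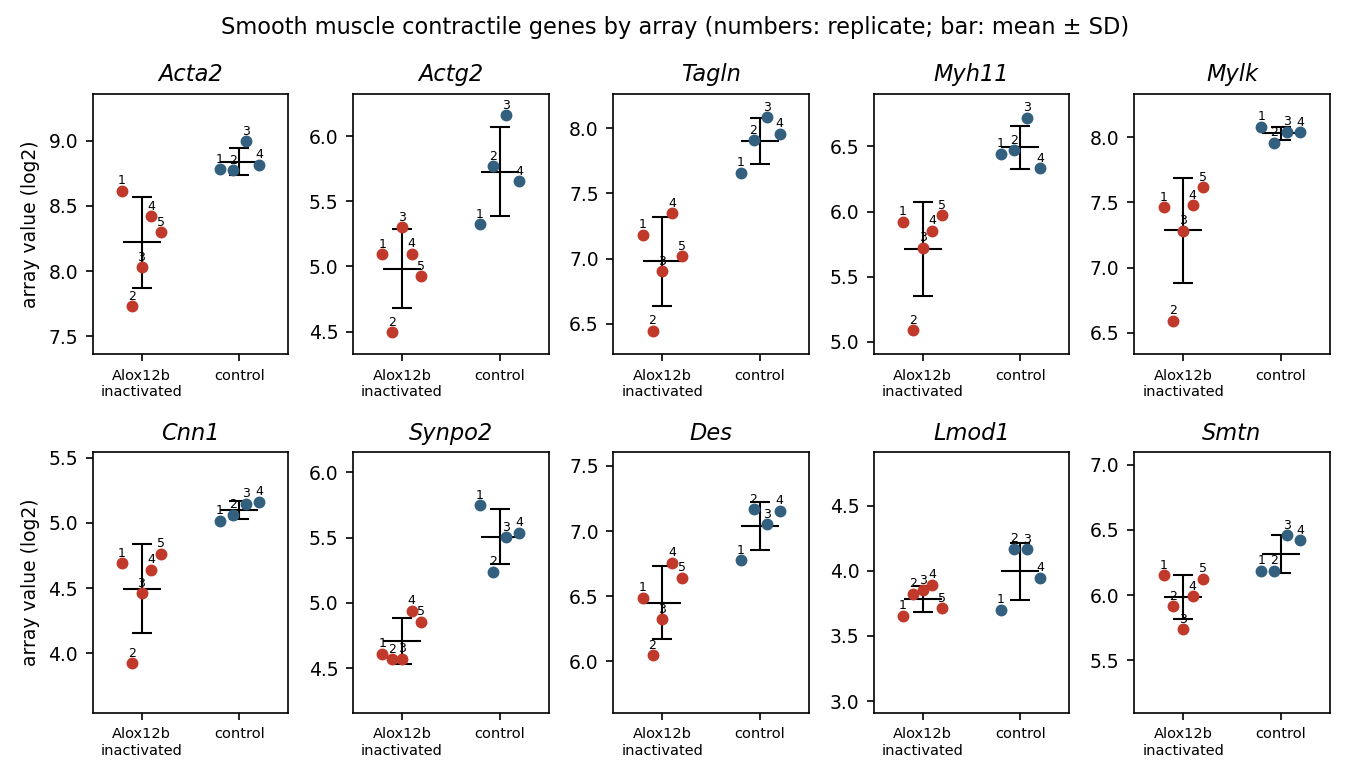
Array values (log2) of the 10 genes, 1 panel per gene with the same axis span of 2 log2 units; points are arrays with their replicate number, and the black bar is the mean ± SD of 5 inactivated (left) and 4 control (right) arrays. All panels except Lmod1 show the inactivated arrays below the control arrays, and inactivated replicate 2 is the lowest array in 8 of the 10 panels.

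The smooth muscle actin Acta2 (chr19:34240336-34255585) had values of 8.62, 7.73, 8.03, 8.42 and 8.30 in inactivated mice, against 8.78, 8.77, 8.99 and 8.82 in controls. The highest inactivated array, replicate 1, lay 0.16 below the lowest control array. Acta2 averaged 8.22 ± 0.35 in the inactivated group (SD, n = 5) and 8.84 ± 0.10 in controls (SD, n = 4), a fall of 0.62 ± 0.16 (limma adjusted p = 0.0137). Its probe set is one that may match several transcripts, and its 2 other probe sets, both below the median level, differed by -0.15 and 0.01 and did not pass (limma adjusted p = 0.316 and 0.941). The enteric actin Actg2 (chr6:83512909-83536251), which is typical of visceral smooth muscle, read 5.09, 4.50, 5.30, 5.10 and 4.92 in inactivated mice, against 5.33, 5.77, 6.16 and 5.65 in controls. Its groups came within 0.03 of each other, at inactivated replicate 3 and control replicate 1. Actg2 averaged 4.98 ± 0.30 in inactivated mice and 5.73 ± 0.34 in controls (SD, n = 5 and 4) and fell by 0.75 ± 0.18 (limma adjusted p = 0.0119).

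Myh11 (chr16:14194527-14292188), the smooth muscle myosin heavy chain, had 5.92, 5.09, 5.72, 5.85 and 5.97 in inactivated mice, against 6.44, 6.47, 6.72 and 6.33 in controls. Inactivated replicate 2 was 0.63 below the next array of its group. Myh11 averaged 5.71 ± 0.36 in inactivated mice and 6.49 ± 0.16 in controls (SD, n = 5 and 4), a fall of 0.78 ± 0.17 to 58.2% of the control level (limma adjusted p = 0.00612). The second Myh11 probe set, below the median level, differed by -0.13 ± 0.07 (limma adjusted p = 0.172). Mylk (chr16:34745199-35002436), the kinase that starts contraction, had 7.46, 6.59, 7.28, 7.48 and 7.61 in inactivated mice, against 8.08, 7.96, 8.04 and 8.04 in controls. The 4 controls lay within 0.12 of one another, while the inactivated arrays spread over 1.02. Mylk fell by 0.74 ± 0.18 (limma adjusted p = 0.01), with means of 7.28 ± 0.41 in inactivated mice and 8.03 ± 0.05 in controls (SD, n = 5 and 4). A second Mylk probe set fell by 0.83 ± 0.18 (limma adjusted p = 0.0062), and the third, just below the median level of all probe sets, differed by -0.07 ± 0.09 (limma adjusted p = 0.577).

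Of the filament-binding proteins, transgelin (Tagln, chr9:45929628-45936058) had 7.18, 6.45, 6.90, 7.35 and 7.02 in inactivated mice, against 7.66, 7.91, 8.09 and 7.96 in controls. It had the largest difference of the 10 genes, a fall of 0.92 ± 0.16 to 52.8% of the control level (limma adjusted p = 0.00206). Means were 6.98 ± 0.34 in inactivated mice and 7.90 ± 0.18 in controls (SD, n = 5 and 4). Calponin 1 (Cnn1, chr9:22099221-22109221), which damps actin-activated myosin, read 4.69, 3.92, 4.46, 4.64 and 4.76 in inactivated mice, against 5.02, 5.06, 5.15 and 5.16 in controls. Its controls spanned 0.15 in all. Cnn1 averaged 4.50 ± 0.34 in inactivated mice and 5.10 ± 0.07 in controls (SD, n = 5 and 4) and fell by 0.60 ± 0.15 (limma adjusted p = 0.0136). Smoothelin (Smtn, chr11:3517522-3539292) had 6.15, 5.91, 5.74, 5.99 and 6.12 in inactivated mice, against 6.19, 6.19, 6.46 and 6.42 in controls. It had the smallest fall of the 9 genes called, 0.33 ± 0.10 (limma adjusted p = 0.0351), and the groups were 0.03 apart at their nearest arrays. Smtn averaged 5.98 ± 0.17 in inactivated mice and 6.31 ± 0.15 in controls (SD, n = 5 and 4). Its call was lost without inactivated replicate 2, 3 or 4 or control replicate 3 or 4, and under 6 further settings at the same threshold.

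Leiomodin 1 (Lmod1, chr1:135324813-135368065) had 3.65, 3.82, 3.85, 3.89 and 3.71 in inactivated mice, against 3.70, 4.17, 4.16 and 3.95 in controls. The groups overlapped through control replicate 1, the lowest control, which lay below 4 of the 5 inactivated arrays. Lmod1 averaged 3.79 ± 0.10 in inactivated mice and 4.00 ± 0.22 in controls (SD, n = 5 and 4), a difference of -0.21 ± 0.11 with a 95% interval of -0.44 to 0.02 (limma adjusted p = 0.165). Its single probe set lies below the median level. Without control replicate 1 the difference was -0.31 ± 0.09 and passed (limma adjusted p = 0.0321).

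Among the anchoring proteins, Synpo2 (chr3:123076519-123236168), which links actin to the dense bodies and Z-discs of muscle, had 4.61, 4.57, 4.57, 4.94 and 4.86 in inactivated mice, against 5.75, 5.24, 5.50 and 5.54 in controls. The groups were 0.30 apart at their nearest arrays, against 0.31 for Tagln, 0.34 for Mylk and 0.36 for Myh11. Synpo2 averaged 4.71 ± 0.18 in inactivated mice and 5.51 ± 0.21 in controls (SD, n = 5 and 4) and fell by 0.80 ± 0.12, the lowest adjusted p of the 10 (limma adjusted p = 0.000672). Its 3 other probe sets, all below the median level, differed by -0.11 to 0.13 and did not pass. Desmin (Des, chr1:75360292-75368579) had 6.49, 6.05, 6.32, 6.76 and 6.64 in inactivated mice, against 6.77, 7.17, 7.05 and 7.16 in controls. Its nearest arrays, inactivated replicate 4 and control replicate 1, were 0.02 apart. Des averaged 6.45 ± 0.28 in inactivated mice and 7.04 ± 0.18 in controls (SD, n = 5 and 4) and fell by 0.59 ± 0.14 (limma adjusted p = 0.0115), while its second, dim probe set differed by -0.01 ± 0.11 (limma adjusted p = 0.939).

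Over all 19 probe sets, 10 fell, none rose and 9 did not pass, beside 16.0% lower and 12.7% higher among all probe sets. That balance of all probe sets, 5698 higher and 7202 lower, turned to 7443 higher and 6342 lower when array medians were subtracted, where 9 of the 19 fell and none rose. The 10 that fell are those whose mean lay above the median level of all probe sets, and the 9 that did not pass are those below it. Of all probe sets above that level, 26.1% fell. Both brighter Mylk probe sets fell, and a positive difference appeared in 1 dim probe set each of Acta2 and Synpo2. With a gene averaged over its probe sets in place of the brightest one, the differences were smaller, at -0.21 for Synpo2, -0.25 for Acta2, -0.30 for Des and -0.46 for Myh11, and each of the 9 genes still passed.

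**Figure D2:**
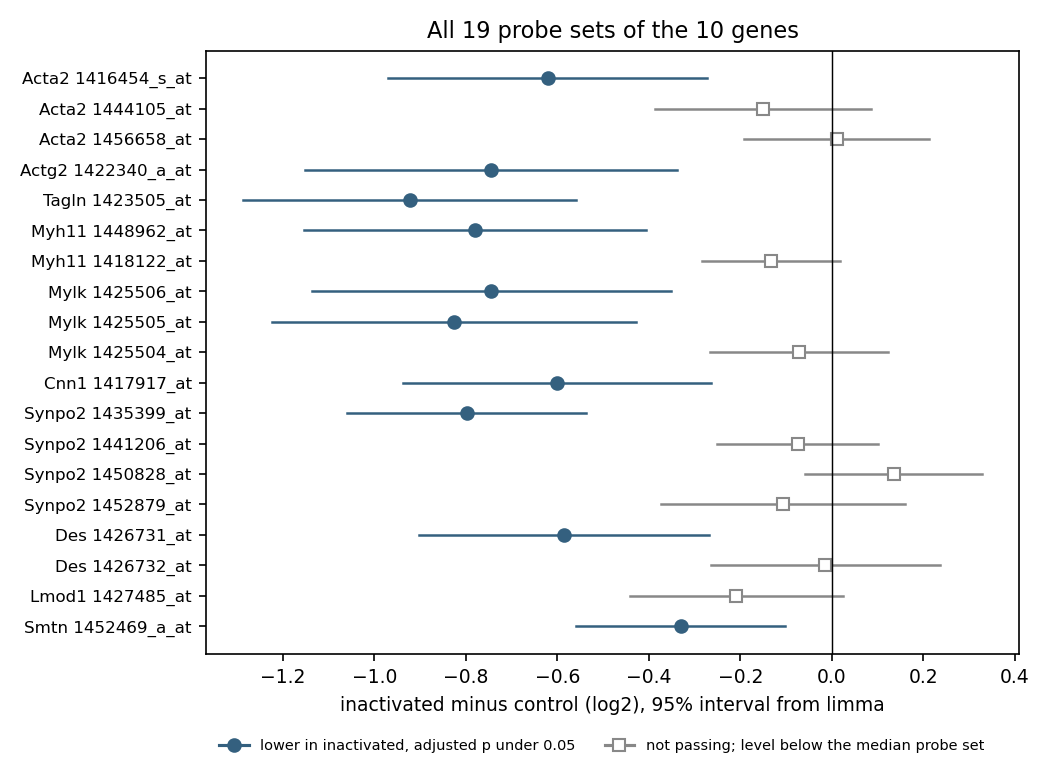
Difference between inactivated and control arrays (log2, horizontal axis) for each of the 19 probe sets (rows), with 95% intervals from limma. Filled circles mark the 10 probe sets called lower, all with a mean above the median level, and open squares the 9 that did not pass, all below it.

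The inactivated arrays differed among themselves more than the controls did in 7 of the 10 genes by SD. Inactivated replicate 2 was the lowest of its group in 8 of the 10 genes, and control replicate 1 the lowest of the controls in 6. Relative to the control mean, the median of the 10 genes was -1.14 on inactivated replicate 2, -0.73 on replicate 3, -0.56 on replicate 1, -0.50 on replicate 4 and -0.47 on replicate 5, against -0.10 to 0.15 on control arrays. By this median inactivated replicate 5, nearest to the controls on the first principal component, was also nearest here, but only just ahead of replicate 4. Replicate 4 was the highest of its group in 4 of the genes and replicate 5 in 3. After the group means were removed, the 45 pairs of genes had a median correlation of 0.52 over the 9 arrays, with a range of -0.48 to 0.97. Without inactivated replicate 2 the median was 0.36. The correlation of each gene with the mean of the other 9, over 9 arrays, was 0.95 for Tagln, 0.93 for Cnn1, 0.91 for Myh11, 0.87 for Acta2, 0.86 for Mylk and 0.83 for Des. It was 0.63 for Actg2, 0.49 for Smtn, 0.25 for Synpo2 and 0.06 for Lmod1. Without inactivated replicate 2 it was 0.85 for Tagln, 0.73 for Smtn, 0.72 for Cnn1, 0.65 for Acta2, 0.63 for Myh11 and 0.62 for Des. It was then 0.37 for Mylk, 0.30 for Lmod1, 0.20 for Actg2 and -0.05 for Synpo2. The 9 points share their arrays, 1 RNA sample each, and the values are a description.

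The 8 other genes that followed the same array-to-array pattern most closely were chosen by their correlation with the mean of the 10 genes after removal of group means, over 9 arrays and among 11369 genes above the median level. They were Gypc, Tmem176a, Slc37a3, Sspn, Tmem176b, Trim35, Zfyve1 and Acer3, with r of 0.975 to 0.986. Inactivated replicate 2 was the lowest of its group in all 8, and no r without that array is given. Sarcospan (Sspn), a component of the dystrophin complex of muscle, fell by 1.13 ± 0.18, Acer3, an alkaline ceramidase, by 1.27 ± 0.13 and Trim35 by 0.42 ± 0.12 (limma adjusted p = 0.000964, 6.56e-05 and 0.0192). The other 5 did not pass, with differences of -0.42 to 0.14, so genes alike in this pattern differed in what they did between the groups. Tmem176b, for example, had 8.25, 7.82, 8.11, 8.43 and 8.29 in inactivated mice, against 8.05, 8.16, 8.33 and 8.20 in controls.

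Partners of the contractile apparatus went both ways, with 8 of 29 measured genes lower, 3 higher and 18 not passing and a median difference of -0.16. Calponin 3 and calponin 2, the forms of calponin found outside smooth muscle too, fell by 0.89 ± 0.10 for Cnn3 and 0.67 ± 0.10 for Cnn2 (limma adjusted p = 0.000154 and 0.000736). Beta-tropomyosin (Tpm2) rose by 1.02 ± 0.09 and the PDZ and LIM protein Pdlim7 by 1.04 ± 0.14 (limma adjusted p = 3.23e-05 and 0.000384). The smooth muscle regulatory light chain Myl9, singled out after its values were seen as the substrate of Mylk, had 6.68, 6.05, 6.78, 6.97 and 6.83 in inactivated mice, against 7.55, 7.28, 7.57 and 7.32 in controls. Its groups did not overlap, and it fell by 0.77 ± 0.17 (limma adjusted p = 0.00637). Caldesmon (Cald1), singled out likewise, differed by 0.10 ± 0.13 and did not pass (limma adjusted p = 0.585).

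Of 22 measured genes that signal to contraction, 9 fell, 2 rose and 11 did not pass, with a median of -0.16. Ppp1r14a, which inhibits myosin phosphatase, had 4.45, 3.94, 3.72, 4.15 and 4.29 in inactivated mice, against 5.24, 5.83, 6.03 and 5.98 in controls. That fall of 1.66 ± 0.18 was larger than that of any of the 10 contractile genes. The phosphatase targeting subunit Ppp1r12a fell by 0.63 ± 0.07, and the store-operated calcium entry proteins Stim1 and Orai1 by 0.95 ± 0.10 and 0.64 ± 0.09. These signalling genes are also used by keratinocytes and other cells.

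Of 16 serum response factor regulators and other transcription factors of smooth muscle or mesenchyme, 7 fell, 1 rose and 8 did not pass, with a median of -0.21. Gata6 fell by 1.18 ± 0.09, Prrx1 by 1.17 ± 0.17, Mef2a by 0.58 ± 0.09 and Foxo4 by 0.45 ± 0.08. Serum response factor (Srf) and myocardin (Myocd), singled out because they act on the CArG box, did not pass. Srf averaged 6.59 ± 0.07 in inactivated mice and 6.68 ± 0.04 in controls (SD, n = 5 and 4), a difference of -0.09 with a 95% interval of -0.24 to 0.05. Myocd, below the median level, averaged 3.63 ± 0.20 in inactivated mice and 3.63 ± 0.06 in controls (SD, n = 5 and 4), with an interval of -0.23 to 0.22. Mrtfb and Mrtfa, the myocardin-related partners of Srf, fell by 0.38 ± 0.08 and 0.32 ± 0.09, and were also named after their values were seen. For Mrtfb 1 of 3 probe sets was called lower.

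Cytoskeletal counterparts in other cells were a list of actins, myosins and their light chains, tropomyosins, vimentin and relatives of the filament-binding genes. Of these, 4 of 21 were lower, 3 higher and 14 not passing, with a median of 0.03. The share lower, 19%, was near the 18.9% of all genes, and 15.5% of all genes were higher. The smoothelin-like gene Smtnl2 rose by 1.71 ± 0.15 and the tropomyosin Tpm4 by 0.30 ± 0.06, while the non-muscle myosin Myh10 fell by 0.91 ± 0.13 and vimentin (Vim), the intermediate filament of mesenchymal cells, by 0.99 ± 0.15. The cytoplasmic actins, singled out as the counterparts of Acta2 and Actg2, did not pass. Actb averaged 12.67 ± 0.08 in inactivated mice and 12.70 ± 0.03 in controls (SD, n = 5 and 4), and its difference had a 95% interval of -0.18 to 0.11. For Actg1 the interval was -0.06 to 0.26. Among 19 genes of TGF-beta signalling and tension responses, which maintain the contractile state of smooth muscle and myofibroblasts, 7 fell, 1 rose and 11 did not pass, with a median of -0.11. The integrin Itgb5 fell by 0.79 ± 0.07, periostin (Postn) by 1.94 ± 0.25, the ligand Tgfb3 by 1.14 ± 0.22 and the co-receptor Tgfbr3 by 0.88 ± 0.20.

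**Figure D3:**
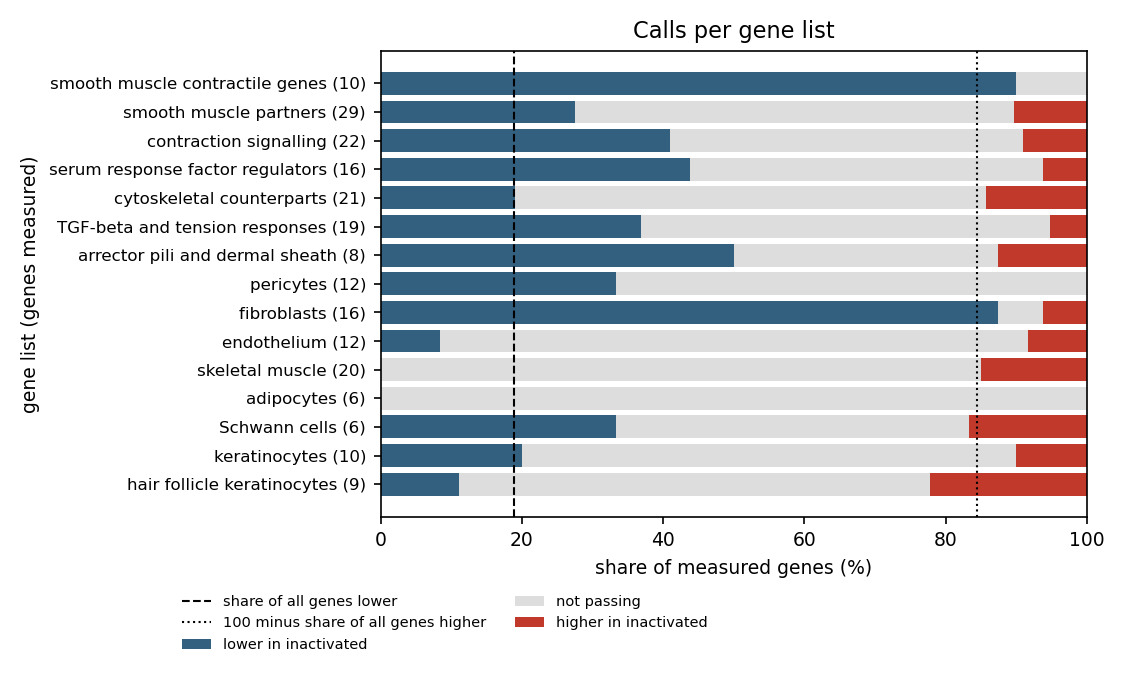
Share of the measured genes of each list (rows, number of genes in brackets) called lower (blue), not passing (grey) or higher (red) in inactivated against control epidermis. The dashed line is the 18.9% of all genes called lower and the dotted line leaves the 15.5% called higher to its right; 9 of 10 contractile genes and 14 of 16 fibroblast markers are blue.

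Markers of other cells that a scratched sheet could hold were read beside the contractile genes, and their part in the fall of these genes was not tested. Fibroblast markers fell in 14 of 16 measured genes, with 1 higher and a median of -1.05. Their mean level was 8.41 to 9.17 on inactivated arrays and 9.38 to 10.01 on control arrays. Thy1 fell by 1.57 ± 0.16, Mfap4 by 2.25 ± 0.33, lumican (Lum) by 1.01 ± 0.16 and dermatopontin (Dpt) by 1.08 ± 0.17. The array with the lowest contractile genes, inactivated replicate 2, also had the lowest fibroblast median, -1.49 relative to the control mean, and control replicate 1 the lowest among controls, -0.35. This was not particular to fibroblasts. Inactivated replicate 2 was also lowest of its group for most other lists, among them pericytes (-0.47), smooth muscle partners (-0.34) and endothelium (-0.29). The arrector pili, skeletal muscle and keratinocyte lists were exceptions. Control replicate 1 was also lowest of the controls for pericytes (-0.18) and endothelium (-0.20), but not for all lists.

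Of the 8 markers of the arrector pili and dermal sheath, 4 fell, 1 rose and 3 did not pass, and their mean level was 4.43 to 5.04 on inactivated arrays and 4.98 to 5.22 on control arrays. Nephronectin (Npnt), the basement membrane ligand by which the follicle bulge anchors the arrector pili muscle, had 4.77, 3.70, 4.53, 4.08 and 4.75 in inactivated mice, against 6.32, 6.91, 6.76 and 6.66 in controls. It fell by 2.30 ± 0.22, which is 4.92 times lower (limma adjusted p = 4.48e-05), and it is made by keratinocytes. Its receptor subunit Itga8, borne by the muscle, had 5.07, 4.27, 4.58, 4.97 and 4.83 in inactivated mice, against 5.34, 5.66, 5.65 and 5.51 in controls, a fall of 0.80 ± 0.15 (limma adjusted p = 0.00323). The endothelin receptor Ednrb fell by 1.37 ± 0.24, and the laminin receptor Itga7 rose by 1.14 ± 0.14.

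Pericyte markers, which could show mural cells of vessels, had 4 of 12 lower, none higher and 8 not passing (limma; 5 lower and 1 higher at an unadjusted p of 0.05), with a median of -0.16. Their mean level was 5.31 to 5.85 on inactivated arrays and 5.78 to 5.97 on control arrays. The channel subunits Abcc9 and Kcnj8 fell by 0.92 ± 0.23 and 0.90 ± 0.24, Pdgfrb by 0.65 ± 0.19 and Ndufa4l2 by 0.80 ± 0.24. Rgs5 and Notch3, singled out from this list, differed by -0.11 ± 0.19 and -0.06 ± 0.08 and did not pass (limma adjusted p = 0.688 and 0.621). These 2 did not follow each other. On inactivated replicate 2 Rgs5 was at its lowest, 7.90, and Notch3 at the highest of its group, 8.31. The remaining pericyte markers that did not pass differed by -0.30 (Cspg4) to 0.32 (Gucy1b1, the 1 higher at an unadjusted p of 0.05). Endothelial markers had 1 of 12 lower (Vwf, by 0.66 ± 0.18), 1 higher (Emcn, by 0.61 ± 0.17) and 10 not passing, with a median of 0.04 and mean levels of 5.37 to 6.09 on inactivated arrays and 5.59 to 6.01 on control arrays. The mean of each list was correlated with the mean of the contractile genes, over 9 arrays and after removal of group means. The pericyte markers had 0.96, smooth muscle partners 0.89, contraction signalling genes 0.88, and endothelial and Schwann cell markers 0.85 each. TGF-beta and tension genes had 0.78, fibroblast markers 0.73, and arrector pili and dermal sheath markers 0.72. Serum response factor regulators had 0.57, cytoskeletal counterparts 0.54, and adipocyte markers and hair follicle genes 0.49 each. The genes listed for keratinocytes had -0.52 and the skeletal muscle markers 0.24. Inactivated replicate 2, the array with the lowest contractile genes, was kept in these correlations. They were not recomputed without it, so the order of the lists is a description only.

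Skeletal muscle markers did not fall in any of 20 genes (limma; 0 at an unadjusted p of 0.05). They rose in 3, Tnni2 by 1.84 ± 0.54, Mb by 0.56 ± 0.18 and Myoz1 by 0.59 ± 0.19, and 17 did not pass. Of all genes, 15.5% rose. Their mean level was 3.21 to 5.81 on inactivated arrays and 3.10 to 3.23 on control arrays, and 15 of the 20 lay below the median level. The median of the list was 2.48 above the control mean on inactivated replicate 4 and 0.04 to 0.46 above it on the other inactivated arrays. The skeletal actin Acta1, singled out after its values were seen and not passing (limma adjusted p = 0.252), had 4.70, 5.23, 5.74, 8.96 and 4.41 in inactivated mice, against 4.61, 4.85, 4.76 and 4.04 in controls. That array was also the highest of its group in 4 of the 10 contractile genes, among them Des, which skeletal muscle expresses. Without it, 8 of the 10 contractile genes fell. Smtn no longer passed, though its difference stayed at -0.33, and it was also lost without inactivated replicate 2 or 3. Each of the 10 differences was a little larger in size without that array, for Des -0.66 against -0.59. None of 6 adipocyte markers passed, and 1 was higher at an unadjusted p of 0.05 (limma; Fabp4 differed by 1.73 ± 0.63 and Retn by 0.61 ± 0.42), with a median of 2.84 above the control mean on inactivated replicate 4 and mean levels of 3.74 to 6.67 on inactivated arrays and 3.74 to 5.03 on control arrays.

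Of 6 Schwann cell markers, 2 fell (Pmp22 by 1.16 ± 0.17 and Ncam1 by 0.34 ± 0.10) and Sox10 rose by 0.30 ± 0.09, with mean levels of 5.55 to 5.81 on inactivated arrays and 5.85 to 5.95 on control arrays. Of the 10 genes listed for keratinocytes, which need not all be particular to them, 2 fell (Epcam by 0.44 ± 0.07 and Trp63 by 0.35 ± 0.09) and Krt14 rose by 0.47 ± 0.06. The share lower, 20%, was near the 18.9% of all genes. Of 9 hair follicle keratins and factors, Krt79 fell by 0.90 ± 0.16, Krt75 rose by 0.89 ± 0.21 and Krt71 by 0.70 ± 0.23, with mean levels of 4.42 to 5.84 on inactivated arrays and 4.47 to 4.63 on control arrays.

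**Figure D4:**
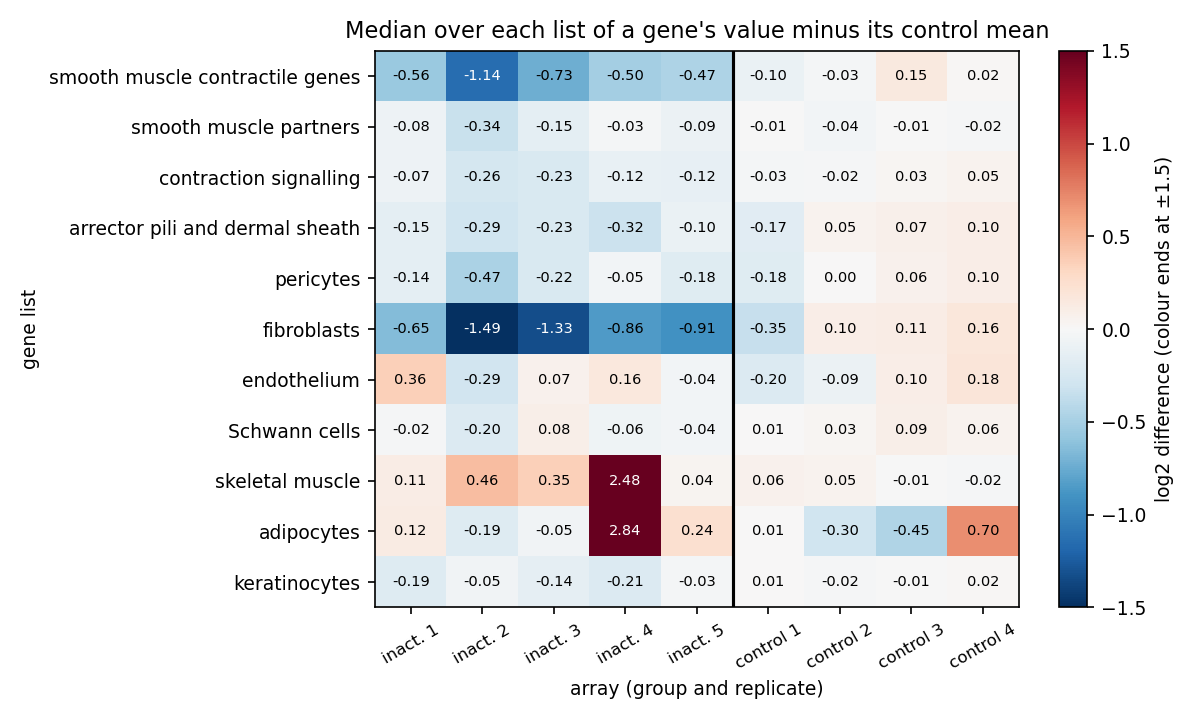
Median over the genes of each list (rows) of the array value minus the gene's control mean (log2, number and colour), for 5 inactivated (left) and 4 control arrays (columns). The contractile genes are at -1.14 to -0.47 on inactivated arrays. Inactivated replicate 2 is the lowest of its group in all rows except arrector pili and dermal sheath, skeletal muscle and keratinocytes. The skeletal muscle and adipocyte rows are high on inactivated replicate 4.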

How the data were processed

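The authors deposited 1 table of log2 array values, 1 column per mouse (9 in all), for 45037 probe sets. The submitters' processing notes name the tool affy and no version. How background correction, normalisation and summary were done is not stated in the labels or the file header. The base of the logarithm was read from the values, whose maxima of 13.47 to 13.53 exceed 11.1, the natural log of the largest scanner value. Of the probe sets, 45.2% hold exactly equal values on 2 or more arrays, as do 7 of the 19 member probe sets.

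Gene symbols came from the platform annotation: 34945 had 1 gene symbol, 932 several and 9160 none. Groups were compared with limma 3.58.1 (lmFit, eBayes, two-sided, no covariates, 7 residual degrees of freedom) in R 4.3.3, on all probe sets without a filter, with Benjamini-Hochberg adjustment over all and a threshold of 0.05. The fit was tested on simulated data. Gene coordinates are those of GRCm38.p6. The lists share some genes. Ednrb is counted under both contraction signalling and arrector pili, Gucy1b1 under contraction signalling and pericytes, and Acta1 under cytoskeletal counterparts and skeletal muscle. Genes of the lists are given by their brightest probe set, and their other probe sets did not always pass. For example, 1 of 3 probe sets was called lower for Mrtfb and Abcc9, and 1 of 2 for Itga8, Myh10 and Tgfbr3.

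The members and gene lists were chosen with earlier results of these data known, so no test over a list is given. Named genes are the 10 members, per list at most 4 called genes, taken from the smallest adjusted p upwards (at most 2 if no gene was called), and the 8 genes most like the members, with exceptions marked. Alternatives covered normalisation, dim filters, moderation, weights, pairing, sex, probe set choice, threshold and each array left out.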

Additional observations from a re-analysis of the deposited data

Results flagged for a closer look

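Each of the 19 probe sets was checked in both groups, 38 checks in all, for an array far from the others of its group relative to the group's range. Chance flags about 1 in 20 such checks, and 4 were flagged. The one among called probe sets was that of Myh11, where inactivated replicate 2 lay at 5.09, against 5.72 for the next lowest inactivated array. Without that array the Myh11 difference still passed. The other 3 were dim probe sets that were not called. One Acta2 probe set read 3.58 on control replicate 1, where the other 3 controls had the same value of 3.33. A further Acta2 probe set read 2.46 on inactivated replicate 3, against 2.16 for the next highest inactivated array, and the dim Des probe set read 3.01 on control replicate 4, against 2.76.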

How the results depend on the processing

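No direction of a member gene reversed under any alternative. Of 217 recomputed gene differences, 198 kept their side of the threshold, 18 lost the call and 1 (Lmod1 without control replicate 1) gained it. With a threshold of 0.01, 3 member genes (Synpo2, Tagln and Myh11) and 4 member probe sets passed as lower, and 2932 probe sets were higher and 4377 lower overall. Leaving out each array gave 8 to 10 member genes and 9 to 11 member probe sets lower, 0 higher in each case, and 4161 to 5931 probe sets higher and 5753 to 7381 lower. At 0.05, Smtn lost its call under quantile normalisation, cyclic loess, subtraction of array medians, no moderation, the replicate block and sex as a covariate (differences of -0.37 to -0.22, adjusted p of 0.0518 to 0.133 by limma or, for no moderation, the ordinary linear model). Without probe sets that may match several transcripts, Actg2 and Smtn had none left and Acta2, on a dim probe set, differed by -0.15 (limma adjusted p = 0.323). With the mean of a gene's probe sets, 9 genes fell, and that fit gives no count of probe sets. Same-numbered arrays had correlations of -0.27 to 0.08 after removal of group means. Differently numbered arrays were not compared, so these values cannot show whether replicate numbers pair the mice. With the replicate block 8 member genes and 9 member probe sets fell, with 4679 probe sets higher and 6329 lower among all. Sex, inferred from probe sets of Xist and Y-linked genes, was female in 3 of 5 inactivated and 1 of 4 control mice, so a test of a group effect that differed by sex rests on 1 female control and can say little. No member probe set passed it (limma adjusted p of 0.881 or more), while 3 had unadjusted p of 0.0309 to 0.0362, with a male minus female difference of the group effect of -0.85 for Actg2, -0.66 for Des and -0.47 for Lmod1. Differences of dim probe sets are limited by signal over background.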
